A study of Mus musculus with 41 samples.

Results

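The genes followed here are 8 milk protein genes and Elf5. They were taken as the members of a fixed list whose symbol equals a gene name on the array, and all 9 listed genes were found among the 30175 gene names measured. Where several probes carried a gene name, the brightest on average stood for the gene, so the choice used brightness over both dyes and all arrays and no difference between groups of tumors.

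Milk protein genes encode the bulk of the protein that secretory alveolar cells of the mammary gland release in lactation. The caseins form calcium-binding micelles, Wap encodes whey acidic protein, Lalba encodes alpha-lactalbumin, the regulatory subunit of lactose synthase, and Glycam1 encodes a mucin-like glycoprotein that is found in milk and also in the high endothelial venules of lymph nodes. Elf5 encodes an ETS transcription factor of luminal progenitor and alveolar cells, which acts with prolactin signalling through the prolactin receptor, JAK2 and STAT5 to turn on milk protein genes in pregnancy. None of these statements is a result of the present data.

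Tumors arose from fragments of Trp53-null mammary duct, taken from 4 female BALB/c donors at 8 weeks of age and grafted into the cleared fat pads of wild-type female BALB/c mice at 3 weeks of age, so that all groups lack Trp53 in the grafted epithelium and not in the host. LFD mice ate a low fat diet (10% of energy from fat) and HFD mice a high fat diet (60%) throughout, HFD-LFD mice changed from high to low fat at 10 weeks of age, and LFD-HFD mice changed from low to high fat at the same age. Tumors were called early before 52 weeks and late after that. The 29 epithelial tumors, whose label reads p53 variable, comprised 8 LFD, 8 HFD, 7 HFD-LFD and 6 LFD-HFD tumors, of which 14 were early and 15 late, and the 12 spindle cell tumors comprised 3 of each regimen, of which 3 were early and 9 late. The wild-type host supplies the stroma, and the labels do not say which donor a tumor came from.

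RNA of each tumor was hybridised together with a reference RNA pooled from 11 mouse cell lines on a 2-color array. Values are log2 ratios of the processed tumor signal (Cy5) to the processed reference signal (Cy3), so that 0 means equal signals and 1 a doubling. The labels give Cy5 for the tumor, which is the opposite of the methods, and the labels were followed because Y-linked genes, absent from the genome of female mice, had a median log2 ratio below 0 on all 41 arrays (between -4.74 and -1.34). Spots whose tumor signal was well above background made up between 52.4% and 94.9% of all spots in epithelial tumors and between 59.1% and 72.7% in spindle cell tumors. The array of MSU_60L stood apart, with 22.02% of its spots set aside as outliers. None of the 3 scan sessions held both histologies, so the effect of session and that of histology cannot be told apart, and a single regimen filled 7 of the 8 slides used for epithelial tumors. P-values measure the spread between single tumors, and 3 of the mouse numbers in the labels occur on 2 tumors each. For 3 HFD tumors (MSU_40R4A, MSU_57R and MSU_65R) the deposited matrix column matched the scanner file of another of the 3, and the labels of the scanner files were followed. In tumor RNA, fewer cells of a type and less RNA per cell cannot be told apart.

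On the NCBI37/mm9 coordinates of the array design, the probes of the 5 casein genes lie together on chromosome 5, from Csn1s1 (88111332 to 88111391) and Csn2 (88121767 to 88121826) over Csn1s2a (88217726 to 88217785) and Csn1s2b (88253383 to 88253442) to Csn3 (88361449 to 88361508). The probe of Wap is on chromosome 11 (6535486 to 6535509), those of Lalba (98310831 to 98310890) and Glycam1 (103393339 to 103393398) are on chromosome 15, and that of Elf5 is on chromosome 2 (103290958 to 103291017). The files do not say which part of a transcript a probe covers.

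RefSeq promoter sequences on GRCm38.p6 were at hand for 7 of the 9 members, with a pair of starts for Elf5 and none for Csn1s2b and Csn3. The 250 bases before each start were searched for TTCNNNGAA, the consensus letters of STAT5 binding, which read the same on both strands. The letters occurred once before Csn1s1 (TTCTTAGAA), once before Csn2 (TTCTTGGAA) and once before Glycam1 (TTCCCAGAA), beginning 100, 93 and 145 bases before the start, which makes 3 of 8 member promoters against 7.02% of the 32841 promoters of the same length. A match is a description of the sequence and no evidence of binding in these tumors. The windows of the 3 genes with a match are shown, and that of Csn1s2a, without a match, because it followed Csn2 most closely from tumor to tumor. Over the epithelial tumors Csn2 correlated with Glycam1 at r = 0.605 and with Csn1s2a at 0.784. Csn1s1, with a match, had r = 0.360 with Csn2 and 0.192 with Glycam1. A relation between matches and correlations was not tested. Capitals mark TTCNNNGAA, and each sequence runs 5′ to 3′ on the strand of its gene.
Csn1s1, chr5:87665958-87666207, + strand: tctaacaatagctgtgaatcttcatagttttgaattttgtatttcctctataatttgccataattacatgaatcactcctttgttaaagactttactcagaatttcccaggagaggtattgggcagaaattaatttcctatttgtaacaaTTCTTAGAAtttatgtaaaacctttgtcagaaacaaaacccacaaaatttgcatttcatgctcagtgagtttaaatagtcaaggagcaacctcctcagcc
Csn2, chr5:87699426-87699675, - strand: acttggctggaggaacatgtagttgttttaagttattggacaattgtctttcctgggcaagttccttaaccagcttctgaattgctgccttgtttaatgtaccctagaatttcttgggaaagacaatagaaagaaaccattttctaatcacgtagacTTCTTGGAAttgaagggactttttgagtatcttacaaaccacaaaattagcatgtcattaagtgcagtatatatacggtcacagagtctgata
Glycam1, chr15:103565082-103565331, - strand: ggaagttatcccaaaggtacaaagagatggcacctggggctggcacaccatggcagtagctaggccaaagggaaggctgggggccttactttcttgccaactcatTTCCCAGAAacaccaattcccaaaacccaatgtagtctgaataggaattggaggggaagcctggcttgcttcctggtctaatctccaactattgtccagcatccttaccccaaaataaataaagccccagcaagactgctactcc
Csn1s2a, chr5:87774200-87774449, + strand: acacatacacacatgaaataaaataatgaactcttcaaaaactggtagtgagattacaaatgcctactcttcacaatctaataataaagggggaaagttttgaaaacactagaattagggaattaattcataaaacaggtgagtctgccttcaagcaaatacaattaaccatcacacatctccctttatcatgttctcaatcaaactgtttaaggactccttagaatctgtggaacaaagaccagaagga

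Most tumors had far more milk protein RNA than the reference. Csn1s1 was above the reference in 40 of 41 tumors, Csn3 in 40, Csn2 in 39 and Lalba in all 41. The median epithelial tumor had 88.5 times the reference signal for Csn1s1, 53.9 times for Csn2, 51.9 times for Csn3, 35.3 times for Csn1s2a and 16.4 times for Lalba. The sizes were smaller with another background correction and normalization (normexp and loess). There the median log2 ratio was 5.71 against 6.47 for Csn1s1, 3.88 against 5.75 for Csn2 and 5.24 against 5.70 for Csn3. It was 3.83 against 5.14 for Csn1s2a and 3.23 against 4.04 for Lalba. Wap was above the reference in 24 of 41 tumors, the fewest of the 9 members. Elf5 was above it in 38 tumors, with 10.6 times the reference signal in the median epithelial tumor.

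**Figure D1:**
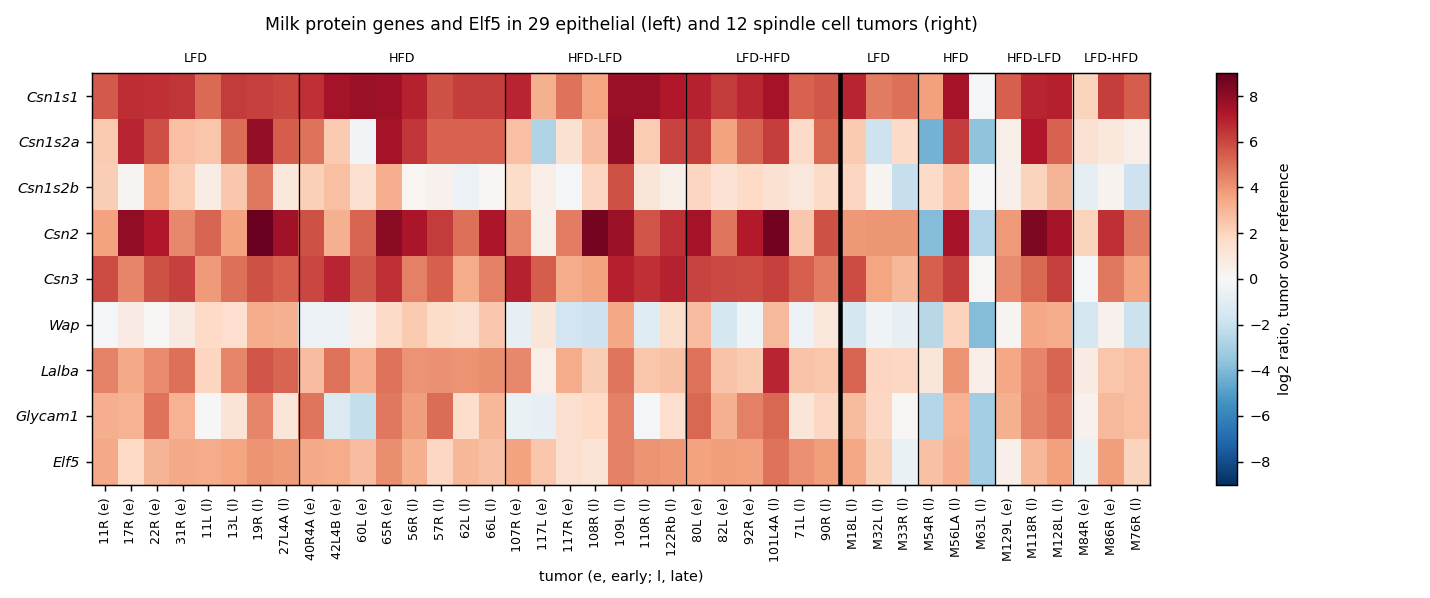
Log2 ratio of tumor over reference (color scale, red above and blue below 0) of the 9 members (rows) in the 41 tumors (columns), ordered by histology, regimen and onset, with a thick line between 29 epithelial and 12 spindle cell tumors. Columns differ within each regimen, and MSU_M63L reaches no more than 0.58 in any of the 9 rows. Tumor names omit the prefix MSU_.

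The members differed more between single tumors than most genes did. Among epithelial tumors the standard deviation of the log2 ratio was 2.5 for Csn1s2a, larger than in 99.93% of the genes on the array, 2.16 for Glycam1 (99.71%) and 2.05 for Csn2 (99.53%). Wap (1.59), Csn1s2b (1.40) and Lalba (1.34) followed, each above at least 95.07% of genes. Csn1s1 (1.14), Csn3 (1.08) and Elf5 (0.89, above 79.61% of genes) varied least of the 9. Among spindle cell tumors all 9 standard deviations were larger than among epithelial tumors, from 1.66 for Lalba to 3.82 for Csn2, and the difference in spread was not tested.

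Csn2, which encodes beta-casein, spanned from 0.56 in tumor MSU_117L over a median of 5.75 to 8.90 in tumor MSU_19R among the 29 epithelial tumors. Csn1s2a, an alpha-S2-like casein gene, spanned from -2.73 in MSU_117L over a median of 5.14 to 7.93 in MSU_109L, and in MSU_117L its tumor signal was not well above background, so that the low end is only a bound. Csn1s1, the alpha-S1-casein gene, ran from 3.18 in MSU_117L over 6.47 to 7.77 in MSU_60L, where the reference signal was not well above background, and 7.74 in MSU_109L. All 3 caseins were thus lowest in the same tumor, an early HFD-LFD tumor.

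Csn3 encodes kappa-casein, which keeps casein micelles in solution, and ran from 3.31 in MSU_117R over a median of 5.70 to 7.02 in MSU_109L. Csn1s2b, the other alpha-S2-like gene, lay nearer the reference, from -0.50 in MSU_62L over 1.47 to 5.72 in MSU_109L. Wap ran from -1.89 in MSU_108R over 1.01 to 3.50 in MSU_109L and was below 0 in 10 of the 29. The lowest tumors of Csn1s2b and Wap were not well above background. Tumor MSU_109L, a late HFD-LFD tumor, was the highest epithelial tumor for 4 of the 9 members, and MSU_117L the lowest for 4.

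Lalba ran from 0.59 in MSU_117L over a median of 4.04 to 6.86 in MSU_101L4A. Glycam1 ran from -2.15 in MSU_60L over 2.99 to 5.18 in MSU_101L4A and was below 0 in 5 epithelial tumors, and in MSU_60L neither of its signals was well above background. Elf5 stayed above the reference in every epithelial tumor, from 1.22 in MSU_108R over 3.41 to 4.89 in MSU_101L4A. The late LFD-HFD tumor MSU_101L4A thus held the highest Elf5 together with the highest Lalba and Glycam1. The share of spots well above background was 92.6% in MSU_109L, 75.5% in MSU_101L4A, 64.4% in MSU_117L and 52.4% in MSU_108R. Over the 29 tumors this share correlated with the log2 ratio of Elf5 at r = 0.466 (rho = 0.444), which did not pass 0.05 after adjustment over the 9 members (permutation test, 2-sided, adjusted p = 0.101 and 0.15), and r was 0.317 without the pair of tumors farthest from the median share. For the other 8 members r lay between -0.056 and 0.329, none with an unadjusted p under 0.05.

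Spindle cell tumors are poorly differentiated and carry mesenchymal features, so the first comparison asked whether they had less milk protein RNA than epithelial tumors. On average they had less: Elf5 fell by 1.63 on the log2 scale, Csn1s2a by 2.89 and Csn3 by 1.48, and these 3 of the 9 members were called at an adjusted p under 0.05 (limma, Benjamini-Hochberg adjustment over 30175 genes). Of all genes tested, 26.2% were called (14.1% higher and 12% lower), and 37.8% had an unadjusted p under 0.05, so a call is common in this comparison. The other 6 members had lower means in spindle cell tumors without passing the threshold. The median difference of the 9 members was -1.27, against -0.03 over all genes tested.

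Elf5 in the 12 spindle cell tumors ran from -3.04 in MSU_M63L over a median of 2.37 to 3.76 in MSU_M86R. Its mean log2 ratio of 1.68 ± 2.16 (SD, n = 12) compared with 3.31 ± 0.89 (SD, n = 29) in the epithelial tumors, and limma put the difference at -1.63 with a standard error of 0.45 (adjusted p = 0.00679). Of the spindle cell tumors 4 lay below the lowest epithelial tumor and 3 above the epithelial median, so the groups overlapped.

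Csn1s2a in spindle cell tumors ran from -4.27 in MSU_M54R over 1.15 to 7.18 in MSU_M118R. Its mean of 1.38 ± 3.61 (SD, n = 12) compared with 4.27 ± 2.5 (SD, n = 29), and limma gave -2.89 with a standard error of 0.94 (adjusted p = 0.0201). It was not well above background in 3 of the spindle cell tumors, 2 of the 12 lay below the lowest epithelial tumor, and 3 lay above the epithelial median. The call was lost with slide as a random block (-2.82, limma, adjusted p = 0.0519) and with normexp and loess (-1.99, adjusted p = 0.0798).

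Csn3 in spindle cell tumors ran from -0.16 in MSU_M84R over 4.47 to 6.21 in MSU_M56LA. Its mean of 3.99 ± 2.15 (SD, n = 12) compared with 5.48 ± 1.08 (SD, n = 29), which limma fitted as -1.48 with a standard error of 0.48 (adjusted p = 0.0202). The 3 probes of Csn3 did not agree: the pair of dimmer probes, well above background in 6 and 5 of the 12 spindle cell tumors, differed by -0.91 and 0.23, and the mean over all 3 probes differed by -0.76 (limma, adjusted p = 0.405). With slide as a random block the call was lost (-1.49, limma, adjusted p = 0.0566).

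The members that were not called differed by -2.09 for Csn2 (adjusted p = 0.0737), -1.27 for Csn1s1 (0.0597), -1.13 for Wap (0.164), -0.99 for Csn1s2b (0.136), -0.92 for Lalba (0.152) and -0.66 for Glycam1 (0.549). Csn2 and Csn1s1 had an unadjusted p under 0.05, as did the 3 called members. A value of this kind does not show that these genes were alike in both histologies, since the standard errors ran up to 0.88 for Csn2.

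Spindle cell tumors fell into no common level. In MSU_M63L, a late HFD tumor, Csn1s1 was at -0.09, Csn2 at -2.64, Csn3 at 0.12, Wap at -3.92, Glycam1 at -3.16 and Elf5 at -3.04, and 5 of the 9 members were not well above background. In MSU_M118R and MSU_M128L, late HFD-LFD tumors, Csn2 was at 8.42 and 7.50, Csn1s1 at 6.83 and 7.00 and Elf5 at 3.02 and 3.66, all within the epithelial range and all above the epithelial median except Elf5 in MSU_M118R. These tumors differed in Vim, a mesenchymal gene, which was at 1.43 in MSU_M118R and at -2.94 in MSU_M128L. The latter was the lowest Vim value of any tumor, epithelial ones included, and the label of spindle cell tumor was followed. Vim was at 1.59 in MSU_M63L. MSU_M63L was the lowest spindle cell tumor for 5 members, and MSU_M118R and MSU_M128L each the highest for 3.

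Tumor MSU_M54R, also late HFD, was mixed. Csn1s2a was at -4.27, Csn2 at -3.90, Glycam1 at -2.62 and Wap at -2.49, whereas Csn3 was at 5.40, Csn1s1 at 3.71, Elf5 at 2.61 and Csn1s2b at 1.72. The tumor signals of Csn1s2a, Csn2 and Glycam1 were not well above background in it. Without MSU_M54R and MSU_M63L, chosen after their values were seen, Elf5 alone was called (log2 difference -1.25, limma, adjusted p = 0.0242), Csn1s2a and Csn3 differed by -1.83 (adjusted p = 0.153) and -1.24 (adjusted p = 0.0555), and Glycam1 turned to 0.27 (adjusted p = 0.83). Leaving out MSU_M63L alone ended the calls of Csn1s2a (adjusted p = 0.0565) and Csn3 (0.0664), leaving out MSU_M54R ended that of Csn1s2a (0.0545), and leaving out MSU_M84R ended that of Csn3 (0.0666), whereas leaving out any 1 of MSU_117L, MSU_M56LA, MSU_M118R and MSU_M128L raised the count to 5 members by adding Csn1s1 and Csn2. Elf5 was called in all 41 of these fits, and lost its call among late tumors alone (-1.62, limma, adjusted p = 0.0763). The share of all genes called in each of these fits is not given here.

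The luminal genes did not follow the milk protein genes in every spindle cell tumor. Krt8, a keratin of luminal cells, was at 2.48 in MSU_M63L, where the adhesion genes Epcam and Cdh1 were at -2.63 and -2.47. In MSU_M54R the same 3 genes were at 3.13, 3.22 and 1.78. MSU_M129L had Krt8 at -1.21, Epcam at -1.79 and Cdh1 at -2.60 together with Csn1s1 at 5.35 and Csn3 at 4.22. Over the whole list of 9 luminal epithelial genes the mean log2 ratio of a tumor was between -0.25 and 4.25 among epithelial and between -1.45 and 2.79 among spindle cell tumors. The 4.25 is that of MSU_60L, where Krt8, Krt18 and Cdh1 are missing as outlier spots, and the next epithelial tumor was at 2.70. The list mean was -1.45 in MSU_M129L, -1.405 in MSU_M63L and 2.32 in MSU_M54R. In MSU_M63L the list as a whole was thus low along with the milk protein genes, whereas Krt8 and the keratin gene Krt18 (2.72) were not.

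**Figure D2:**
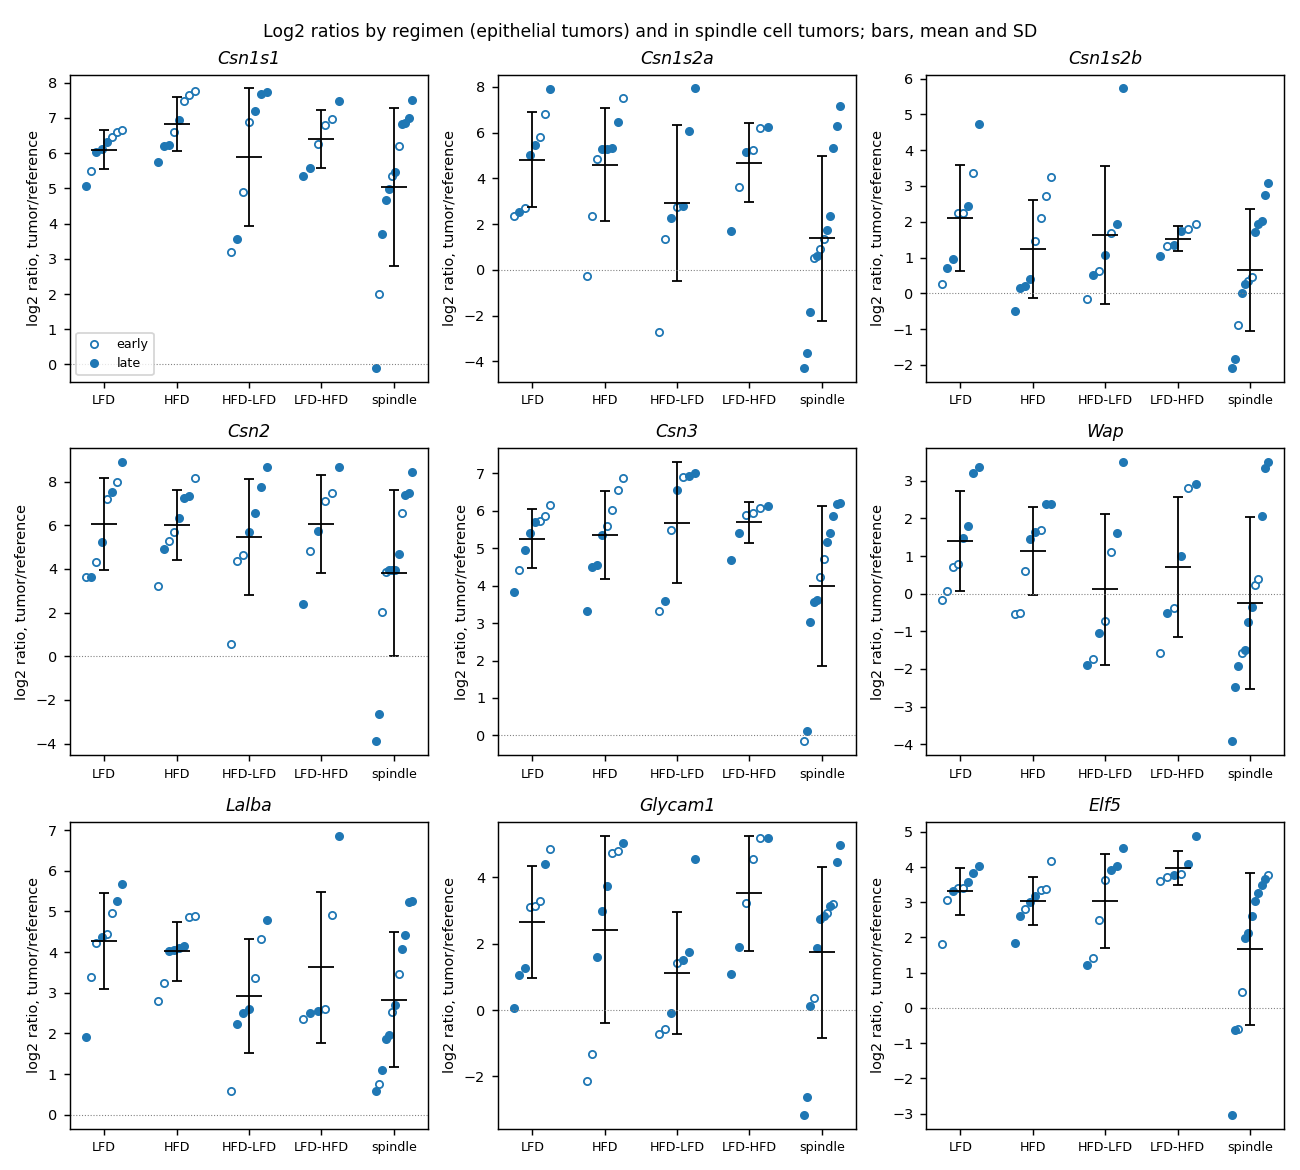
Log2 ratio of each member (panels) in epithelial tumors by regimen and in all spindle cell tumors, with open points for early and filled points for late tumors, 1 point per tumor, and black marks for the mean with SD. The 4 regimens overlap in every panel, and the lowest spindle cell tumors reach below the epithelial tumors.

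Marker lists of other cell types were set beside these values. Of 7 fibroblast and mesenchymal genes 5 were called higher in spindle cell tumors, with a median difference of 0.92, led by the collagen genes Col1a1 (1.22) and Col3a1 (1.20) and by Vim (1.19), the mesenchymal intermediate filament. All 7 were well above background in every tumor of both histologies. Of 9 luminal epithelial genes 1, the tight junction gene Cldn3, was called lower (-0.95), and the median was -0.73. Of 7 basal and myoepithelial and 7 adipocyte genes 0 were called, with medians of -0.30 and -0.41, and 1 of 6 leukocyte genes, Cd8a, was called lower (-1.39). Of 7 hormone-sensing luminal genes 0 were called (median -0.21), and of 5 skeletal muscle genes 1, the myosin light chain gene Mylpf, was called lower (-0.58). The part of these cell types in the members' differences was not tested.

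Glycam1 can also come from lymph nodes. Of the 8 lymph node and high endothelial venule genes on the array 0 were called between the histologies (median -0.71), and their mean log2 ratio per tumor was between -1.03 and 3.97 among epithelial and between -1.45 and 3.28 among spindle cell tumors. Spindle cell tumors MSU_M128L and MSU_M118R, which had the highest Glycam1 (4.96 and 4.45), had list means of -1.0 and -0.43. MSU_M86R and MSU_M76R had the highest list means of the 12, 3.28 and 2.91, with Glycam1 at 2.94 and 2.74. Among epithelial tumors the 3 highest list means, 3.97 in MSU_40R4A, 3.81 in MSU_57R and 3.14 in MSU_101L4A, came with Glycam1 at 4.81, 5.04 and 5.18, near the top of its range. The part of lymph node tissue in Glycam1 was not tested. The adipocyte list stood apart in the spindle cell tumors MSU_M76R and MSU_M32L, with means of 3.93 and 2.21 against -2.68 or lower in the other 10. Without MSU_M32L, MSU_M76R and MSU_M86R, chosen after their values were seen, Csn1s2a lost its call between the histologies (-2.40, limma, adjusted p = 0.0866).

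Genes of the prolactin pathway split between both directions. Of 18 listed genes 4 were called lower and 3 higher in spindle cell tumors, and the median difference was -0.12. The prolactin receptor gene Prlr was lower by 1.48 (standard error 0.51, limma, adjusted p = 0.0268), Nfib, a nuclear factor that binds milk protein gene promoters, differed by -1.26 (adjusted p = 0.00057), and the receptor gene Erbb4 and the helix-loop-helix inhibitor gene Id2 differed by -1.40 and -0.86. Erbb4 was well above background in 12 epithelial tumors and 1 spindle cell tumor, so its difference rests on dim spots. Cav1, which encodes caveolin-1 and is also widely expressed in stromal cells, was higher by 1.91 (adjusted p = 0.00281), and the suppressor of cytokine signalling Socs3 and the kinase gene Akt1 were higher by 0.43 and 0.38.

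Of 16 genes of other milk products 3 were called higher and 1 lower in spindle cell tumors (median -0.19), a share near that of all genes. Wfdc18, a whey acidic protein family gene, was lower by 1.18 (adjusted p = 0.0195), whereas the lipid droplet gene Plin2 was higher by 0.96 (adjusted p = 0.000235), the milk fat globule enzyme gene Xdh by 0.63 and B4galt1, the catalytic partner of alpha-lactalbumin, by 0.46. Of 15 genes of milk lipid synthesis and transport 1, the phosphate transporter gene Slc34a2, was called (-1.04). Of 7 genes of alveolar and luminal progenitor cells 1 was called, the ETS factor gene Ehf (-1.11, adjusted p = 0.0176), and the median of the list was -0.99. None of these lists had a called gene in any of the other comparisons.

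The diet comparisons gave 0 of 9 members. Among the 4 regimens in epithelial tumors 0 members passed an adjusted p of 0.10 by the F-test of limma, against 0.176% of all genes, and 0 had an unadjusted p under 0.05, against 12.1%. Mean Elf5 was 3.98 ± 0.48 (SD, n = 6) in LFD-HFD, 3.31 ± 0.68 (SD, n = 8) in LFD, 3.04 ± 0.68 (SD, n = 8) in HFD and 3.04 ± 1.33 (SD, n = 7) in HFD-LFD tumors, and no neighbors in this order differed after adjustment. Its lowest LFD-HFD tumor, at 3.61, lay above the median of each other regimen except HFD-LFD (3.63). Of the 6 pairwise contrasts, LFD-HFD against HFD gave a log2 difference of 0.93 (unadjusted p = 0.0438, limma, adjusted p = 0.523), with 0.119% of all genes called, and LFD-HFD against HFD-LFD gave 0.94 (unadjusted p = 0.0485, limma, adjusted p = 0.867). The other 4 contrasts had an unadjusted p above 0.05 for Elf5.

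Glycam1 was ordered in the same way at the ends, with means of 3.52 ± 1.74 (SD, n = 6) in LFD-HFD, 2.65 ± 1.69 (SD, n = 8) in LFD, 2.43 ± 2.82 (SD, n = 8) in HFD and 1.12 ± 1.84 (SD, n = 7) in HFD-LFD tumors. Its LFD-HFD against HFD-LFD difference of 2.39 did not pass adjustment (unadjusted p = 0.039, limma, adjusted p = 0.861), and 0.00331% of all genes were called in that contrast. Lalba was highest in LFD tumors at 4.28 ± 1.18 (SD, n = 8) and lowest in HFD-LFD tumors at 2.92 ± 1.41 (SD, n = 7), a difference of -1.36 (unadjusted p = 0.0425, limma, adjusted p = 0.338), with 0.865% of all genes called. In these contrasts the regimens overlapped tumor by tumor.

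The caseins showed no order of regimens that went beyond their spread. Csn2 had means between 5.47 and 6.06 in the 4 regimens with standard deviations from 1.59 to 2.67, and Csn3 means between 5.26 and 5.69. Csn1s1 was at 6.83 ± 0.76 (SD, n = 8) in HFD and 5.88 ± 1.96 (SD, n = 7) in HFD-LFD tumors, and Csn1s2a at 4.82 ± 2.09 (SD, n = 8) in LFD and 2.92 ± 3.41 (SD, n = 7) in HFD-LFD tumors. HFD-LFD had the largest standard deviation of the 4 regimens for Csn1s1, Csn1s2a, Csn1s2b, Csn2, Csn3, Wap and Elf5, and it holds MSU_109L as well as the low tumors MSU_117L, MSU_117R and MSU_108R. MSU_117L and MSU_117R carry the same mouse number. Their mean log2 ratios over 9 luminal epithelial genes, 0.64 and -0.25, were the lowest among epithelial tumors, whereas MSU_108R was at 1.94. The part of this in their low milk protein values was not tested.

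Pubertal high fat diet was compared in all 41 tumors, of which 21 had it (HFD, HFD-LFD) and 20 did not (LFD, LFD-HFD). Again 0 of 9 members were called (0.00994% of all genes, with 0.00663% higher and 0.00331% lower) and 0 had an unadjusted p under 0.05 (6.47% of all genes). The largest difference was -0.88 for Glycam1 (standard error 0.68, limma, adjusted p = 0.882), and that of Elf5 was -0.38 (standard error 0.47). Adult high fat diet within epithelial tumors likewise gave 0 of 9 members (0% of all genes, and 4.18% of all genes at an unadjusted p under 0.05 against 0 members). There the largest difference was 1.09 for Glycam1 (standard error 0.74, limma, adjusted p = 0.979).

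**Figure D3:**
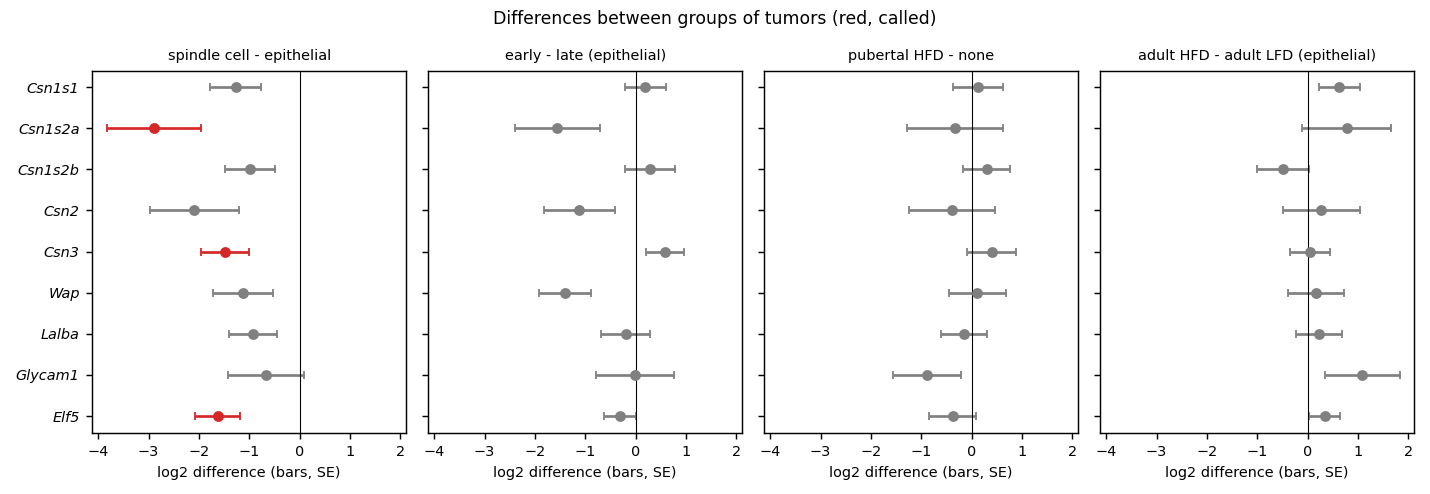
Log2 difference of each member (rows) in 4 comparisons (panels), with the standard error of limma's fit as bars and the called differences in red. The 3 called members, Csn1s2a, Csn3 and Elf5, are in the comparison of histologies.

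The difference made by pubertal high fat diet was also compared between the histologies. For the 9 members the interaction had 0 calls (0.288% of all genes, with 0.0928% above and 0.196% below 0), and 1 had an unadjusted p under 0.05 (11.4% of all genes). Csn1s2b came nearest, with an interaction of 2.5 (unadjusted p = 0.00996, limma, adjusted p = 0.295). In spindle cell tumors it was at 1.67 ± 1.22 (SD, n = 6) after pubertal high fat diet and -0.38 ± 1.52 (SD, n = 6) without, and in epithelial tumors at 1.42 ± 1.61 (SD, n = 15) and 1.87 ± 1.15 (SD, n = 14). The spindle cell values were 1.72 in MSU_M54R, 2.74 in MSU_M56LA and 0.02 in MSU_M63L for HFD, and 2.02 in MSU_M118R, 3.09 in MSU_M128L and 0.46 in MSU_M129L for HFD-LFD. They were 1.92 in MSU_M18L, 0.26 in MSU_M32L and -2.08 in MSU_M33R for LFD, and -1.83 in MSU_M76R, -0.88 in MSU_M84R and 0.34 in MSU_M86R for LFD-HFD. The groups with and without pubertal high fat diet overlapped, and 4 of the 12 spindle cell tumors were not well above background for this probe.

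Among the spindle cell tumors alone, the 4 regimens gave 0 of 9 members (0% of all genes), with 1 member, Glycam1, at an unadjusted p under 0.05 (unadjusted p = 0.0365, limma, adjusted p = 0.9), against 4.15% of all genes. Glycam1 was at 3.19 in MSU_M129L, 4.45 in MSU_M118R and 4.96 in MSU_M128L of HFD-LFD, at 2.85, 1.87 and 0.14 in the LFD tumors MSU_M18L, MSU_M32L and MSU_M33R, at 2.94, 2.74 and 0.36 in the LFD-HFD tumors MSU_M86R, MSU_M76R and MSU_M84R, and at 3.14, -2.62 and -3.16 in the HFD tumors MSU_M56LA, MSU_M54R and MSU_M63L. The HFD-LFD tumors were the highest, and all 3 lay above every other spindle cell tumor. With 3 tumors a regimen the precision was low.

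Onset was compared among the epithelial tumors, where 14 early tumors were set against 15 late ones, and 0 of 9 members were called (0.0530% of all genes, with 0.0298% higher and 0.0232% lower). Wap was the only member with an unadjusted p under 0.05, against 11.0% of all genes. It ran from -1.74 over a median of -0.05 to 2.80 in early tumors and from -1.89 over 1.64 to 3.50 in late tumors, with 7 of 14 early and 3 of 15 late tumors below 0. With means of 0.15 ± 1.24 (SD, n = 14) and 1.55 ± 1.61 (SD, n = 15), limma gave -1.40 with a standard error of 0.51 (unadjusted p = 0.00992, adjusted p = 0.31). The groups overlapped over most of their range, and the second probe of Wap followed the first with r = 0.932 over the epithelial tumors.

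Within regimens Wap was not uniformly lower in early tumors. In HFD the early tumors MSU_40R4A, MSU_42L4B, MSU_60L and MSU_65R were at -0.52, -0.55, 0.61 and 1.71, and the late tumors MSU_56R, MSU_57R, MSU_62L and MSU_66L at 2.38, 1.64, 1.47 and 2.40. In LFD the early tumors MSU_11R, MSU_17R, MSU_22R and MSU_31R were at -0.17, 0.71, 0.08 and 0.80, and the late tumors MSU_11L, MSU_13L, MSU_19R and MSU_27L4A at 1.79, 1.48, 3.37 and 3.20. In LFD every late tumor lay above every early one, and in HFD MSU_65R alone overlapped with the late tumors. In LFD the 4 early tumors shared a slide and the 4 late tumors another, so onset and slide cannot be told apart there, and the same holds for HFD-LFD. In HFD the early tumors MSU_42L4B and MSU_60L were alone on their slide and in their scan session. Neither Wap signal of MSU_60L was well above background.

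In HFD-LFD the early tumors MSU_107R, MSU_117L and MSU_117R were at -0.72, 1.1 and -1.74, and the late tumors MSU_108R, MSU_109L, MSU_110R and MSU_122Rb at -1.89, 3.50, -1.06 and 1.61. In LFD-HFD the early tumors MSU_80L, MSU_82L and MSU_92R were at 2.80, -1.58 and -0.39, and the late tumors MSU_101L4A, MSU_71L and MSU_90R at 2.92, -0.51 and 1.01. Both switched regimens thus overlapped widely between early and late. This reading of single regimens was made after the values were seen and was not tested, and MSU_40R4A, MSU_57R and MSU_65R are the 3 tumors whose matrix columns were exchanged.

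The caseins did not move as a group with onset. Csn1s2a differed by -1.55 (standard error 0.85) and Csn2 by -1.12 (standard error 0.71), whereas Csn3 differed by 0.58 (standard error 0.38) and Csn1s1 by 0.19 (standard error 0.41), none of them called (limma, adjusted p between 0.508 and 0.905). Elf5 was at 3.15 ± 0.77 (SD, n = 14) in the early group and at 3.46 ± 0.98 (SD, n = 15) in the late group. With slide as a fixed block, which rests on the slides that hold both, Csn1s2a moved to 0.07 and Elf5 to 0.65, and Wap was at -1.52 (limma, adjusted p = 0.702). Over both histologies and among spindle cell tumors alone, onset gave 0 of 9 members (0.00663% and 0% of all genes), with 0 at an unadjusted p under 0.05 in either (7.55% and 2.38% of all genes).

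The correlations between members asked which of these genes rose and fell together from tumor to tumor. Over the 29 epithelial tumors 14 of 36 pairs had an adjusted p under 0.05 for Pearson's r and 10 for Spearman's rho (permutation tests with 100000 resamples, 2-sided, adjusted over the 36 pairs). Of the 36 values of r 35 were above 0, with a median of 0.376, from -0.016 for Csn2 with Csn3 to 0.784 for Csn1s2a with Csn2.

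Csn1s2a, Csn2 and Glycam1 went together. Csn1s2a with Csn2 had r = 0.784 and rho = 0.807 (permutation adjusted p = 0.00018 and 0.00036), and r was 0.744 without the pair of tumors farthest from the median of Csn1s2a. Csn1s2a with Glycam1 had r = 0.731 and rho = 0.672 (permutation adjusted p = 0.00018 and 0.00054; 0.653 without such a pair), and Csn2 with Glycam1 r = 0.605 and rho = 0.576 (permutation adjusted p = 0.00374 and 0.00852; 0.559). Csn1s2a also went with Wap, at r = 0.560 and rho = 0.675 (permutation adjusted p = 0.00774 and 0.00054; 0.744), but within slides this pair had r = 0.452 and rho = 0.414 (permutation adjusted p = 0.101 and 0.127).

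Csn1s1, Csn3 and Elf5 went together as well. Csn3 with Elf5 had r = 0.655 and rho = 0.648 (permutation adjusted p = 0.00156 and 0.0013; 0.614), and Csn1s1 with Csn3 r = 0.603 and rho = 0.682 (permutation adjusted p = 0.00374 and 0.00054; 0.670). Csn1s1 with Elf5 had r = 0.564 and rho = 0.404 (permutation adjusted p = 0.00814 and 0.086; 0.409), so that rank order alone did not pass. Other members were tied to these genes too. Lalba had r = 0.559 with Csn1s2a and 0.523 with Csn1s1 (permutation adjusted p = 0.00813 and 0.0115), so it went with genes of both groups. Without the farthest pairs these were 0.421 and 0.287. Csn1s2b had r = 0.537 with Csn3 (permutation adjusted p = 0.0098; 0.538).

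Pairs that cross these sets of 3 genes had r from -0.016 to 0.491 in the processed log2 ratios, below every pair within a set. That order did not hold in the alternatives. Csn1s1 with Csn1s2a, a crossing pair, had r = 0.654 with normexp and loess and 0.620 with the tumor channel alone, against 0.603 and 0.617 for Csn1s1 with Csn3. Within slides it had 0.623, against 0.587 for Csn2 with Glycam1. The sets were named after the values were seen, and the difference between them was not tested. Csn3 had r = -0.016 with Csn2, 0.124 with Csn1s2a and 0.106 with Glycam1, and Elf5 had 0.087 with Csn2 (permutation adjusted p between 0.592 and 0.934). The caseins Csn2 and Csn3 lie on the same stretch of chromosome 5, and tumor MSU_108R had Csn2 at 8.65 with Csn3 at 3.60, whereas MSU_42L4B had Csn2 at 3.20 with Csn3 at 6.88. In both of these tumors the reference signal of Csn2 was not well above background, so the size of its ratio is uncertain. Csn1s1 and Csn1s2a crossed the groups at r = 0.491 (permutation adjusted p = 0.0229), and r was 0.245 without MSU_108R and MSU_117L. Without the same tumors it was 0.584 with normexp and loess, 0.506 with the tumor channel alone and 0.562 within slides, so its dependence on them was seen in the processed log2 ratios only. In values of the tumor channel alone Csn2 with Csn3 had r = -0.036 and Csn1s2a with Csn2 0.826, and within slides these were -0.021 and 0.686.

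**Figure D4:**
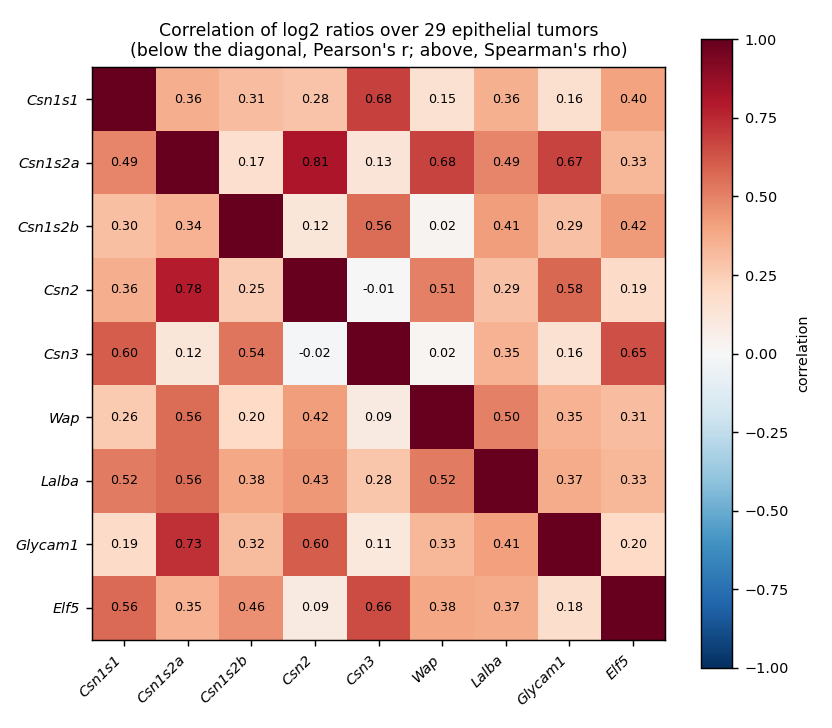
Correlation of the log2 ratios of each pair of members over 29 epithelial tumors, with Pearson's r below and Spearman's rho above the diagonal and color from -1 (blue) to 1 (red). Csn1s2a and Csn2 (r = 0.784) stand at one end and Csn2 and Csn3 (r = -0.016) at the other.

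The reference is 1 RNA pool on all arrays, so its signal was examined for each member. Signals were set relative to the 75th percentile of their array and channel. Over all genes the median standard deviation of the log2 reference signal between the 41 arrays was then 0.543, against 0.925 for the tumor channel. For the members the standard deviation of the log2 reference signal on this scale, over epithelial tumors, was 1.47 for Csn1s1, 1.48 for Glycam1 and 1.26 for Csn3. It was between 0.53 (Elf5) and 0.87 (Lalba) for the other 6. The reference signal rose with the tumor signal of the same spot. After both channels of an array were set relative to their 75th percentiles, r over the 29 arrays was 0.916 for Csn3, 0.913 for Csn1s1, 0.844 for Glycam1 and 0.541 to 0.787 for the others (rho 0.469 to 0.936; permutation tests, adjusted p over the 9 members at most 0.0107), and without the pair of arrays farthest from the median of the reference it was 0.431 to 0.926. For Csn1s1 the reference signal was 1640 in MSU_19R, where the tumor signal was 114000, and 26.0 in MSU_108R, where the tumor signal was 309.

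The spread of the ratio was smaller than that of the tumor signal. For Csn1s1 the standard deviation over epithelial tumors was 1.14 for the log2 ratio and 2.41 for the unscaled log2 tumor signal, and for Csn3 it was 1.08 and 2.13. The part of this in the differences between groups was not tested. With the tumor channel alone, where the median difference of all genes moves to -0.24, Elf5 differed by -2.10 between the histologies (limma, adjusted p = 0.00781), Csn3 by -2.22 (adjusted p = 0.0527) and Csn1s2a by -2.32 (adjusted p = 0.12).

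**Figure D5:**
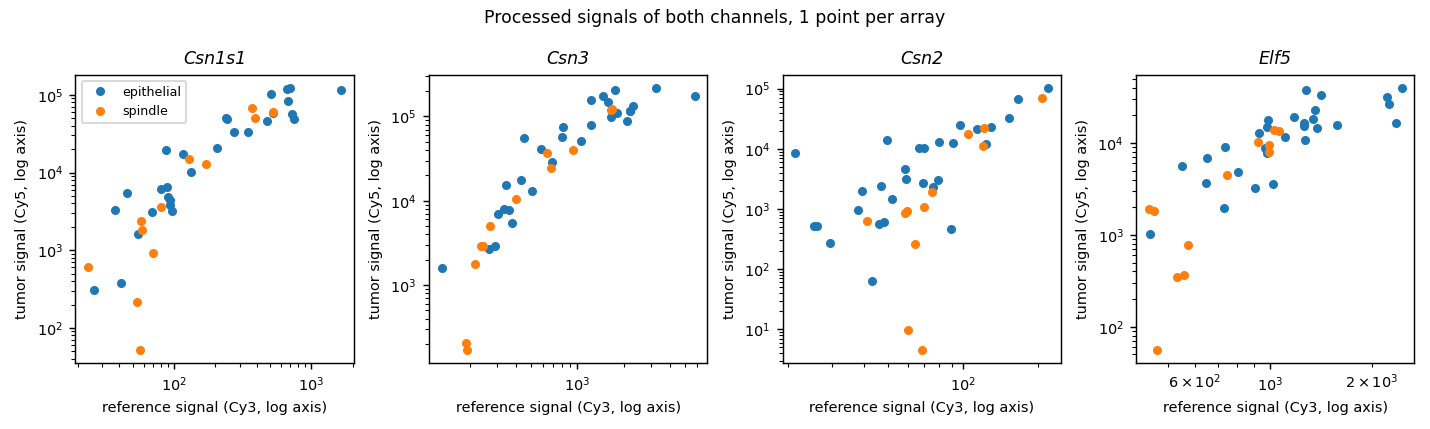
Processed tumor signal (vertical, log axis) against processed reference signal (horizontal, log axis) of 4 members, 1 point per array, blue for epithelial and orange for spindle cell tumors. The reference signal of Csn1s1 is 26.0 in MSU_108R and 1640 in MSU_19R among epithelial tumors, and it is higher where the tumor signal is higher.

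The genes whose log2 ratios were most like Elf5 over the epithelial tumors, among 23239 genes well above background in at least 10 of them, were Cbx1 (r = 0.797), Ptrh2 (0.787), Tom1l1 (0.752), Phlda1 (0.742), Traf4 (0.742), Foxc1 (0.733), Enpp3 (0.733), Trps1 (0.732), Echdc3 (0.729) and Taf15 (0.729), each over 28 or 29 tumors. Cbx1, Ptrh2, Tom1l1, Traf4 and Taf15 lie on chromosome 11, that is 5 of the 10, against 7.7% of the 22912 such genes with a chromosome in the files, whereas Elf5 lies on chromosome 2. The position was looked up after the genes were listed and was not tested. In the tumor channel alone their r ran from 0.583 to 0.747.

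Against the mean of the 8 standardized milk protein genes, the most alike named genes were Il17re (r = 0.679), C530043A13Rik (0.674), Gstt3 (0.672) and Pgap3 (0.671), each over 28 or 29 tumors. The other 6 of the 10 carry transcript or probe names only, with r up to 0.745 in log2 ratios and from 0.229 to 0.553 in the tumor channel alone. With the tumor channel alone Il17re had 0.477, Gstt3 0.549 and Pgap3 0.536, and C530043A13Rik kept 0.687. None of the 10 genes most like Elf5 was among the 10 most like the milk protein genes.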

How the data were processed

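Per the labels and methods, RNA of 41 tumors was labelled and hybridised with a common reference on 2-color Agilent arrays, 1 array per tumor. The deposited scanner files hold spot intensity, which the authors' scanner software (Feature Extraction 11.0.1.1 for epithelial and 10.5.1.1 for spindle cell tumors per the file headers, 8.5.1.1 per the labels) background-subtracted and dye-normalized by lowess. The deposited matrix holds log2 ratios made by the authors, and it served as an alternative only.

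From the scanner files, log2 of Cy5 over Cy3 processed signal was taken for each of 43020 gene spots, outlier spots were set missing without imputation, spots of a probe were averaged (39429 probes), and each of 30175 genes took its probe of highest mean signal. No intensity filter was applied, and all 9 members passed each alternative filter with the probe used. Tests were limma 3.58.1 in R 4.3.3 with Benjamini-Hochberg adjustment over all genes tested, called under 0.05 for histology and under 0.10 elsewhere. Correlations used permutation tests with 100000 resamples, for which 1e-05 is the smallest p. On simulated data with 200 of 30175 genes changed by 2 on the log2 scale, 94% were recovered for histology, 82% among epithelial regimens and 56.5% for onset among spindle cell tumors. Of the simulated calls 6%, 14.1% and 9.6% were false. The changed genes were drawn at random from all genes, with independent noise of each gene's own spread. The members vary more than most genes, so these rates do not give the recovery for the members. Genes most like a member were the 10 of highest Pearson r over epithelial tumors, among genes well above background in at least 10 of them and with at least 25 values. Promoters were matched by symbol. The members and the gene lists were chosen with earlier results of these data known. The array number limits the precision.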

Additional observations from a re-analysis of the deposited data

Results flagged for a closer look

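Of 36 groups of 4 to 10 tumors examined, 3 held a tumor whose gap to its neighbor was large against the whole range of the group, where chance gives about 5% of groups. Among the HFD-LFD epithelial tumors, Csn1s2b stood at 5.721 in MSU_109L, with the next highest of the 7 at 1.95. Among the LFD epithelial tumors, Elf5 stood at 1.81 in MSU_17R, with the next lowest of the 8 at 3.07. Among the LFD-HFD epithelial tumors, Elf5 stood at 4.894 in MSU_101L4A, with the next highest of the 6 at 4.08.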

How the results depend on the processing

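The count of members called between the histologies, 3 as reported, was 5 at the other threshold and with 1 tumor per shared mouse number, and 1 with the tumor channel alone, with slide as a random block, without MSU_M54R and MSU_M63L (chosen after seeing the data) and in late tumors only. Elf5 was the member called in each of these fits with 1 call, except in late tumors, where it was Csn1s2a. Leaving out 1 tumor at a time gave 1 to 5 calls, the lowest without MSU_M63L and the highest without MSU_117L, MSU_M56LA, MSU_M118R or MSU_M128L. The share of all genes called, 26.2% as reported, can change with each alternative and is not given for them. A change in these counts therefore cannot be read as particular to the members. Csn1s2a was not called with normexp and loess (-1.99, limma, adjusted p = 0.0798), with the matrix of the authors (-1.94, 0.119), with slide as a random block (-2.82, 0.0519) or without MSU_M32L, MSU_M76R and MSU_M86R (-2.40, 0.0866), and Csn3 not with slide as a random block (-1.49, 0.0566) or in late tumors (-0.85, 0.354). Every other comparison gave 0 members under every alternative run. The correlations with an adjusted p under 0.05 numbered 14 of 36 as reported, 24 with normexp and loess, 19 with the tumor channel alone and 12 within slides, of which 14, 14 and 10 were among the 14. Of the single-gene values under alternatives, 495 kept their direction and side of the threshold where called, 12 lost and 6 gained a call, and 0 turned direction while called. The causes were not tested. No paired analysis was made, since the only pairs in the labels are the 3 mouse numbers that occur on 2 tumors each. The labels give no replicate numbers, and those used here follow accession order.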
